A study of Mus musculus with 32 samples.

Results

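The genes described here are 10 regulators of the G1 phase of the cell cycle, picked by name from the 18588 genes whose signal was measured in microglia of a tau transgenic mouse. They are the D-type cyclins Ccnd1, Ccnd2 and Ccnd3, their kinase partners Cdk4 and Cdk6, the inhibitors Cdkn1a, Cdkn1b and Cdkn2c, the retinoblastoma gene Rb1 and the transcription factor gene Myc. All 10 had a row in the table, found by Entrez number.

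G1 is the interval in which a cell either commits to copying its DNA or stays at rest. Growth factor signals raise the D-type cyclins, which bind and activate CDK4 or CDK6. These kinases phosphorylate RB, which then releases E2F factors that switch on the genes of S phase. The inhibitors p21 (Cdkn1a) and p27 (Cdkn1b) act on the cyclin-kinase complexes, and p18 (Cdkn2c) binds CDK4 and CDK6. MYC is induced early by growth factor signals. Microglia are the resident macrophages of the brain. They renew slowly in the healthy adult brain and can proliferate in diseased brain, and they depend on CSF1 receptor signals to survive.

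For each library, CD11b antibody-coupled beads had captured microglia from forebrains of female mice, pooled over 8 to 10 animals. The rTg4510 mice carry 2 transgenes, a mutant human tau gene behind a tetracycline-responsive element and a transactivator driven by the CaMKIIα promoter. Human tau is therefore made in forebrain neurons after birth, can be repressed with doxycycline, and is not driven in the microglia themselves. The WT mice (strain 129/FVB F1) were littermates with neither transgene, and the sources used here name no treatment of either genotype. Each genotype was sampled at 2, 4, 6 and 8 months of age, with different animals at each age and 4 libraries in each of the 8 groups. The authors kept 28 of the 32 libraries, which left 4 in each group of 2 or 6 months and 3 in each group of 4 or 8 months. Those left out, replicate 3 of both genotypes at 4 months and replicate 4 of both at 8 months, had failed RNAseq QC and are used below only where all 32 libraries are named. A library stands for a pool of animals, so the p-values measure the spread between pools.

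Values are log2 gene signals as deposited, with a median over all genes of 5.63 in every library. A unit of 1 on this scale is a doubling. Signals were not divided by transcript length, so levels are compared between libraries for 1 gene and not between genes. The table gives no read totals, so the depth behind each value is unknown and no counting interval can be given. The lowest value in a library lay between 1.23 and 1.92, and the lowest value of any of the 10 genes in the 28 libraries was 4.76, in Ccnd3, so none was near the floor. All 8 microglia markers lay above the library floors in every library, with mean log2 signals over the 28 libraries from 6.24 for Aif1 to 13.57 for Cx3cr1. Markers of other cell types were measured as well, among them the astrocyte genes Slc1a3 (mean 9.57) and Aqp4 (7.67), the border macrophage gene Mrc1 (9.44) and the neutrophil gene S100a8 (7.24). Of the neuronal markers, Snap25 had a mean of 3.99 and Syt1 of 2.95, with lowest values of 2.42 and 1.35, and the other 4 listed had no row. In bulk RNA such as this, fewer cells of a type and less RNA per cell cannot be told apart.

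**Figure D1:**
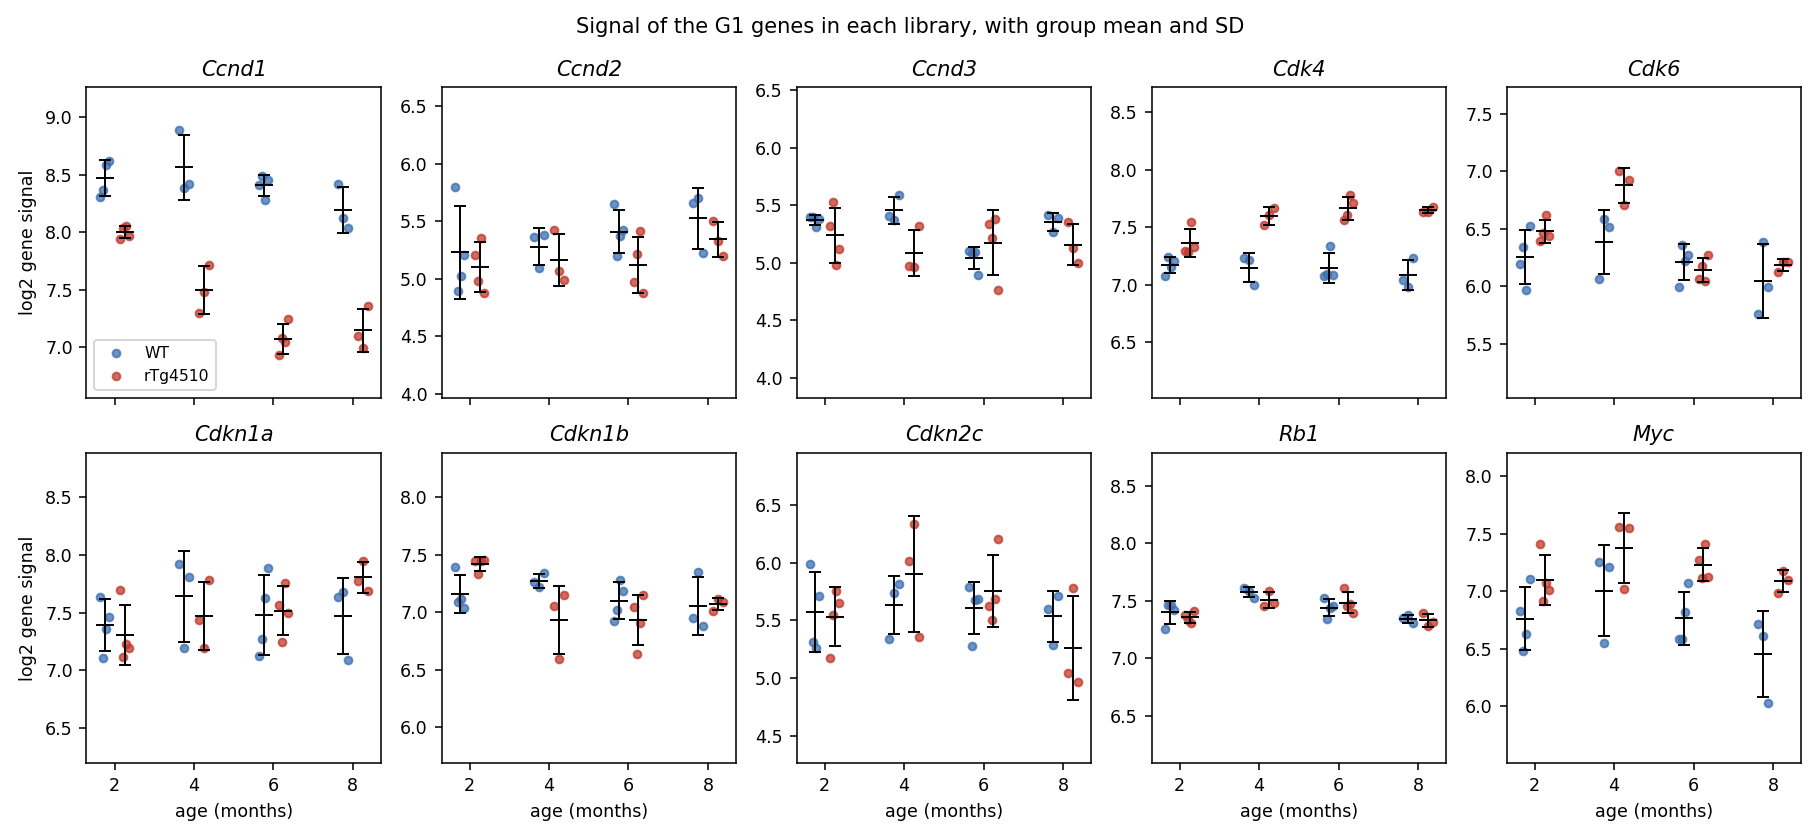
Log2 gene signal (vertical axis, the same span of 2.7 units in each panel) of the 10 G1 genes against age in months in the 28 kept libraries. Points are libraries (blue WT, red rTg4510), and black bars give the group mean and SD. Ccnd1 separates the genotypes at each age, Cdk4 separates them with a smaller gap, and the points of Rb1 lie closest together.

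Ccnd1, the cyclin D1 gene, was the member that changed most between genotypes, and it was lower in rTg4510. The decrease was 1.38 fold at 2 months, 2.10 fold at 4 months, 2.52 fold at 6 months and 2.06 fold at 8 months. Cdk4, the kinase that cyclin D1 activates, was higher in rTg4510 at every age, but by less than 1.5 fold. Its difference at 2 months did not pass the test. Cdk6 was higher at 4 months by 1.41 fold, also under 1.5 fold. Myc was higher by 1.55 fold at 8 months, a call that depended on single libraries. The other D-type cyclins, the inhibitors and Rb1 had no genotype difference that passed the test at any age.

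Genes were called changed when the FDR (Benjamini-Hochberg adjusted over all 18588 genes in a comparison, from limma's linear model over the 28 libraries) was under 0.05 and the change exceeded 1.5 fold, the thresholds of the Methods. By this rule 0 of the 10 members were called at 2 months, where 1.98% of all genes were called. Ccnd1 alone was called at 4 months (13.8% of all genes) and at 6 months (19.8%), and Ccnd1 and Myc were called at 8 months (15.9%). The 10 genes as a group were thus called about as often as genes at large. At 2 months 2 of the members had an unadjusted p under 0.05, as did 3069 of all 18588 genes. Limma with moderated variances also called 0 members there. The median absolute log2 fold change of the members was 0.16 at 2 months, 0.36 at 4 months, 0.16 at 6 months and 0.24 at 8 months, beside 0.16, 0.29, 0.32 and 0.31 over all genes.

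**Figure D2:**
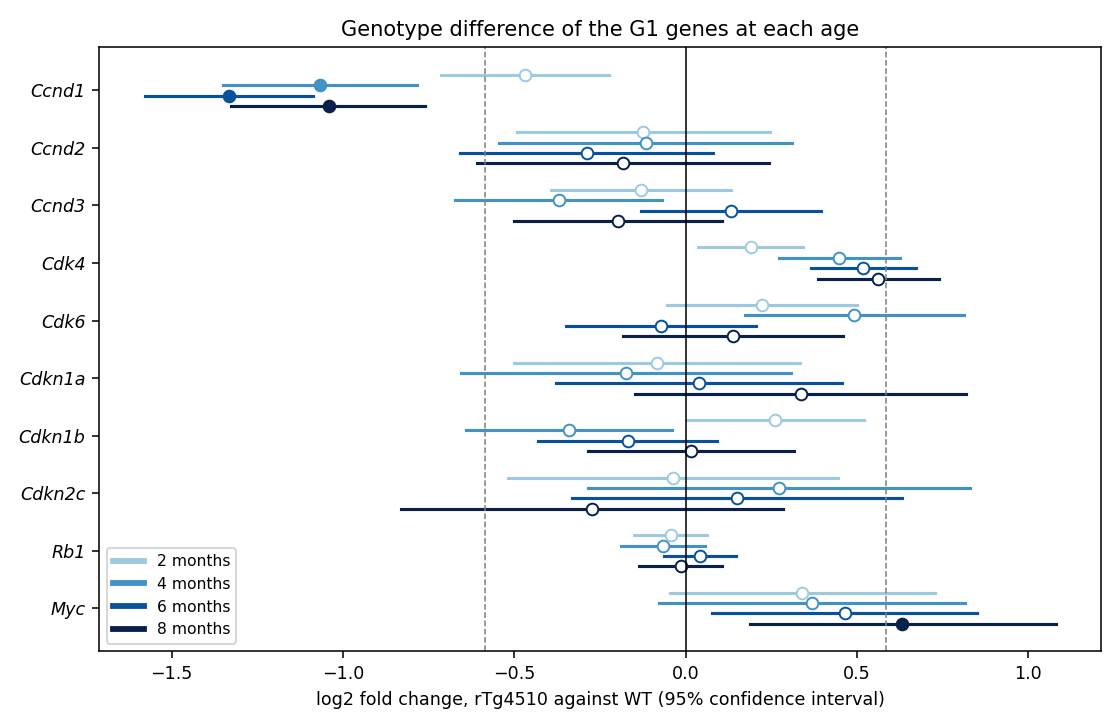
Log2 fold change of rTg4510 against WT (horizontal axis) with its 95% confidence interval for each G1 gene at 2, 4, 6 and 8 months (light to dark blue, top to bottom within a gene). Filled circles passed both thresholds, and the dashed lines mark 1.5 fold. The called values are Ccnd1 at 4, 6 and 8 months and Myc at 8 months, and the 4 intervals of Cdk4 lie above 0.

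Ccnd1 lies on chromosome 7 at 144929931 to 144939831 in RefSeq's annotation of GRCm38.p6. At 2 months the WT libraries had log2 signals of 8.30, 8.37, 8.59 and 8.62, and the rTg4510 libraries had 7.94, 8.04, 8.06 and 7.97. At 4 months the values were 8.89, 8.39 and 8.42 in WT and 7.30, 7.48 and 7.71 in rTg4510. Each rTg4510 library was thus below each WT library of its age from the first age on. At 6 months the values were 8.41, 8.49, 8.28 and 8.46 in WT against 6.93, 7.08, 7.05 and 7.25 in rTg4510. At 8 months they were 8.42, 8.12 and 8.04 in WT against 7.10, 6.99 and 7.36 in rTg4510. The groups did not overlap at these ages either, and the gap between the nearest libraries of the 2 genotypes was widest at 6 months.

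The log2 fold change of Ccnd1 was -0.47 at 2 months (SE 0.12, FDR 0.0172 by limma), which passed the FDR but not the 1.5-fold threshold. It was -1.07 at 4 months (SE 0.14, FDR 3.67e-06), -1.33 at 6 months (SE 0.12, FDR 1.08e-08) and -1.04 at 8 months (SE 0.14, FDR 3.94e-06). Leaving out any 1 of the 28 libraries kept the calls at 4, 6 and 8 months, with values from -1.18 to -0.91 at 4 months. With only the libraries of 4 months in the fit the FDR of Ccnd1 was 0.0506, just past the threshold. With all 32 libraries the value at 4 months was -0.72 (FDR 0.0412) and the FDR at 2 months was 0.717. The 2-month difference of Ccnd1 also missed the FDR without rTg4510 replicate 1 (-0.45, FDR 0.0545), WT replicate 3 (-0.43, FDR 0.0628) or WT replicate 4 (-0.42, FDR 0.0655) of that age.

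Ordered by mean, the Ccnd1 groups ran from WT at 4 months (8.57 ± 0.28, SD, n = 3) through WT at 2 months (8.47 ± 0.16, n = 4), WT at 6 months (8.41 ± 0.091, n = 4) and WT at 8 months (8.19 ± 0.20, n = 3) to rTg4510 at 2 months (8.00 ± 0.056, n = 4), 4 months (7.497 ± 0.21, n = 3), 8 months (7.15 ± 0.19, n = 3) and 6 months (7.08 ± 0.13, n = 4). Neighbours within WT overlapped, and so did WT at 8 months with rTg4510 at 2 months, and rTg4510 at 8 months with rTg4510 at 4 and at 6 months. The steps from 2 to 4 months and from 4 to 6 months in rTg4510 had no overlap.

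Between ages within a genotype, the decline of Ccnd1 in rTg4510 was tested separately from that in WT. From 2 to 8 months Ccnd1 fell by 0.85 on the log2 scale in rTg4510 (SE 0.13, FDR 4.17e-05 by limma), a 1.81-fold decrease and the 1 member called in a comparison that called 10.5% of all genes. With all 32 libraries the value was -0.69 (FDR 0.0823). The step of Ccnd1 from 2 to 4 months was -0.51 (FDR 0.00893), below the 1.5-fold threshold. It was -0.41 (FDR 0.0605) without rTg4510 replicate 1 of 4 months and -0.09 (FDR 0.846) with all 32 libraries. The step from 4 to 6 months was -0.42 (FDR 0.102). From 6 to 8 months the value was 0.07 (FDR 0.836). In WT the change from 2 to 8 months was -0.28 (SE 0.13, FDR 0.234).

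The genotype effect on Ccnd1 was larger at 4 than at 2 months by -0.60 on the log2 scale (SE 0.18, FDR 0.0460 by limma), the only member called in this test of the difference itself, which called 4.66% of all genes. This call was close to the threshold. It was lost when any of 16 of the 28 libraries was left out, with an FDR of 0.0522 to 0.134. These were rTg4510 replicates 1 to 4 of 2 months, 1 and 2 of 4 months, 2 and 3 of 6 months and 1 of 8 months, and WT replicates 1 and 2 of 2 months, 1 of 4 months, 1, 2 and 4 of 6 months and 2 of 8 months. Without WT replicate 1 of 4 months, the library with the highest Ccnd1 of its group, the value was -0.44. With all 32 libraries it was -0.26 (FDR 0.778), and the rTg4510 library of 4 months that this adds had a Ccnd1 signal of 9.15. The effects at 4 and 6 months differed by -0.27 (FDR 0.775) and those at 6 and 8 months by 0.29 (FDR 1). These 2 tests called 0.156% and 0% of all genes and 0 of the 10 members, of which 2 and 0 had an unadjusted p under 0.05. Over all 18588 genes, 1514 and 841 had one.

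Ccnd2 and Ccnd3 encode cyclins D2 and D3, which activate the same kinases. Ccnd2 (chromosome 6, 127125162 to 127152188) ranged from 4.89 to 5.80 over the WT libraries and from 4.87 to 5.50 over those of rTg4510. Its log2 fold change was negative at each age, between -0.29 and -0.12, but the groups overlapped at all ages and the lowest FDR was 0.223. The 95% interval of Ccnd2 at 6 months ran from -0.66 to 0.08, so a decrease as large as the 2.52 fold of Ccnd1 at that age lay outside it. At 2 months it ran from -0.49 to 0.25 and included the -0.47 of Ccnd1.

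Ccnd3 (chromosome 17, 47505051 to 47599689) had its clearest difference at 4 months, with 5.41, 5.38 and 5.59 in WT and 4.98, 4.96 and 5.32 in rTg4510. Each rTg4510 library was below each WT library, but the log2 fold change of -0.37 (SE 0.15, FDR 0.0727 by limma) did not pass. The value was 0.13 at 6 months and -0.13 and -0.20 at 2 and 8 months, with overlapping groups. In WT, Ccnd3 went from 5.46 ± 0.12 at 4 months (SD, n = 3) to 5.04 ± 0.098 at 6 months (n = 4) and 5.36 ± 0.076 at 8 months (n = 3), steps that did not pass the FDR of their comparisons (0.326 and 0.458). A pseudogene copy, Ccnd3-ps, is annotated on chromosome 4. How reads that match both were counted is not given in the sources used here.

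Cdk4 lies on chromosome 10 at 127063535 to 127067288. In WT its log2 signal stayed between 6.98 and 7.34 over the 14 libraries, with group means of 7.17, 7.15, 7.15 and 7.09 from 2 to 8 months. In rTg4510 the libraries had 7.29, 7.29, 7.54 and 7.33 at 2 months and 7.52, 7.60 and 7.67 at 4 months. They had 7.56, 7.61, 7.78 and 7.71 at 6 months and 7.64, 7.63 and 7.68 at 8 months. All rTg4510 libraries were above all WT libraries of their age at each of the 4 ages.

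The log2 fold change of Cdk4 was 0.19 at 2 months (SE 0.074, FDR 0.166 by limma) and did not pass. At the later ages Cdk4 passed the FDR with 0.45 at 4 months (SE 0.085, FDR 4.20e-04), 0.52 at 6 months (SE 0.074, FDR 9.34e-06) and 0.56 at 8 months (SE 0.085, FDR 2.65e-05). These are changes of 1.36, 1.43 and 1.48 fold, so Cdk4 was not called at any age under the 1.5-fold rule. Without WT replicate 3 of 8 months, the WT library of that age with the highest Cdk4, the value at 8 months was 0.64 and Cdk4 was called. In rTg4510 Cdk4 was 0.29 higher at 8 than at 2 months (FDR 0.0116, 1.22 fold, and FDR 0.0617 with all 32 libraries), with no overlap, whereas in WT the change was -0.08 (FDR 0.618). The genotype effects at 2 and 4 months differed by 0.26 (SE 0.11, FDR 0.196), which did not pass.

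Cdk6, the second kinase partner (chromosome 5, 3341004 to 3531008), had another course. In rTg4510 it was highest at 4 months, with 7.004, 6.71 and 6.92, above the 6.40, 6.46, 6.62 and 6.44 of 2 months. At 6 months the rTg4510 libraries had 6.07, 6.18, 6.05 and 6.27 and at 8 months 6.12, 6.21 and 6.21. The 4-month libraries thus lay above all other rTg4510 libraries. In WT the values ran from 5.76 to 6.58 over all ages, with overlap between neighbouring ages.

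Between 4 and 6 months Cdk6 fell by 0.74 in rTg4510 on the log2 scale (SE 0.14, FDR 0.00927 by limma), a 1.67-fold decrease. It was the 1 member called in this comparison, which called 0.818% of all genes. Without rTg4510 replicate 1 of 4 months Cdk6 fell by 0.68 with an FDR of 0.0537, and with only the 2 groups in the fit the FDR was 0.124. The rise of Cdk6 from 2 to 4 months was 0.40 (FDR 0.0681) and did not pass. Against WT, Cdk6 was higher at 4 months by 0.49 (SE 0.15, FDR 0.0236, 1.41 fold), with no overlap. Among the libraries of that age, the FDR was missed without WT replicate 1 (0.33, FDR 0.150), rTg4510 replicate 1 (0.43, FDR 0.0883) or rTg4510 replicate 4 (0.47, FDR 0.0704), and Cdk6 passed both thresholds without WT replicate 2 (0.59, FDR 0.0169). At 2, 6 and 8 months the values of Cdk6 were 0.22, -0.07 and 0.14 with FDRs of 0.449 or more, and the difference between the effects at 4 and 6 months, -0.57 (SE 0.20, FDR 0.403), did not pass.

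The inhibitors showed smaller differences. Cdkn1a, the p21 gene induced by p53 and by other stress signals (chromosome 17, 29090979 to 29100722), ranged from 7.09 to 7.92 in WT and from 7.11 to 7.95 in rTg4510. Its log2 fold change was -0.08, -0.17, 0.04 and 0.34 from 2 to 8 months, with FDRs of 0.324 or more. At 8 months the rTg4510 libraries had 7.77, 7.95 and 7.69 and the WT libraries 7.64, 7.68 and 7.09, so the groups did not overlap, but the gap between the nearest libraries was small and the 95% interval of Cdkn1a ran from -0.15 to 0.82.

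Cdkn1b, the p27 gene (chromosome 6, 134920401 to 134925525), stood at 7.45, 7.33, 7.44 and 7.45 in rTg4510 and at 7.39, 7.09, 7.11 and 7.03 in WT at 2 months. At 4 months it was 7.05, 6.60 and 7.15 in rTg4510 against 7.26, 7.22 and 7.34 in WT. The order of the genotypes was therefore opposite at the 2 ages, with overlap only at 2 months, yet neither difference passed, at 0.26 (FDR 0.304) and -0.34 (FDR 0.0984). The difference between the effects at 2 and 4 months was -0.60 (SE 0.19, FDR 0.0605 by limma), on the edge of the threshold. Cdkn1b was called with moderated variances (FDR 0.0498), with all 32 libraries (-0.66, FDR 0.0499), and without rTg4510 replicate 4 of 4 months (-0.71, FDR 0.0405), rTg4510 replicate 2 of 6 months (FDR 0.0452), WT replicate 1 of 2 months (-0.68, FDR 0.0369) or WT replicate 2 of 8 months (FDR 0.0412). Without rTg4510 replicate 2 of 4 months, the library with the lowest Cdkn1b, the value was -0.43 (FDR 0.186).

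Within rTg4510, Cdkn1b fell by 0.48 from 2 to 4 months (SE 0.13, FDR 0.0174), below the 1.5-fold threshold and with no overlap. Without rTg4510 replicate 2 of 4 months Cdkn1b fell by 0.32 (FDR 0.147). This comparison called 6.39% of all genes and 0 of the members. An unadjusted p under 0.05 was found for 5 members (Ccnd1, Cdk4, Cdk6, Cdkn1b and Rb1) and for 5065 of all 18588 genes. Without rTg4510 replicate 4 of 4 months, both Ccnd1 (-0.61) and Cdkn1b (-0.59) passed the 1.5-fold threshold there. At 6 and 8 months the genotype difference of Cdkn1b was -0.17 and 0.01, with overlapping groups.

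Cdkn2c, the p18 gene of the INK4 family that binds CDK4 and CDK6 (chromosome 4, 109660876 to 109666756), had the widest spread within groups of the 10 genes, with a residual SD of 0.33. Its values overlapped between genotypes at all ages, from 5.26 to 5.99 in WT and from 4.96 to 6.34 in rTg4510. The log2 fold changes of Cdkn2c lay between -0.27 and 0.27 with FDRs of 0.506 or more. At 4 months the 95% interval ran from -0.29 to 0.83, a range that includes a 1.5-fold increase in Cdkn2c.

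Rb1, the gene of the pocket protein that the kinases phosphorylate (chromosome 14, 73192858 to 73325951), was the steadiest. Its residual SD of 0.072 was lower than that of all but 1.3% of the genes, and its log2 fold change lay between -0.07 and 0.04 over the 4 ages. The 95% intervals of Rb1 stayed between -0.19 and 0.15, which leaves out a change of 1.5 fold in either direction at each age. The level was highest at 4 months in both genotypes, at 7.58 ± 0.045 in WT (SD, n = 3) and 7.51 ± 0.071 in rTg4510 (n = 3). The steps from 2 to 4 months, 0.17 in WT and 0.15 in rTg4510, had no overlap but FDRs of 0.244 and 0.0713. Only the RNA was measured, and RB is regulated mostly by phosphorylation.

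Myc lies on chromosome 15 at 61985341 to 61990361. At 6 months the rTg4510 libraries had 7.27, 7.11, 7.41 and 7.12 and the WT libraries 6.59, 6.59, 6.82 and 7.07. At 8 months they had 6.99, 7.17 and 7.10 against 6.72, 6.61 and 6.03. The genotypes did not overlap at these ages, and the lowest value of all was that of WT replicate 3 of 8 months. At 2 and 4 months the groups overlapped, with WT from 6.48 to 7.25 and rTg4510 from 6.91 to 7.55.

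The log2 fold change of Myc was 0.34 (FDR 0.390), 0.37 (FDR 0.241), 0.46 (FDR 0.0598) and 0.63 (SE 0.21, FDR 0.0337 by limma) from 2 to 8 months. At 6 and 8 months replicate numbers were taken to pair the libraries, from the values alone, and the main fit did not use this pairing. A limma fit with a replicate block, set at every age, gave Myc an FDR of 0.0327 at 6 months, still below 1.5 fold. The block did not change the call of Myc at 8 months. The call at 8 months depended on single libraries. Myc was not called without rTg4510 replicate 1 (0.68, FDR 0.0504), 2 (0.59, FDR 0.102) or 3 (0.63, FDR 0.0741) or without WT replicate 3 (0.42, FDR 0.197) of that age. Quantile normalization gave 0.60 (FDR 0.0514) and a fit of the 8-month libraries alone gave an FDR of 0.168, whereas all 32 libraries gave 0.66 (FDR 0.0257). The mean of Myc in rTg4510 at 8 months, 7.09 ± 0.095 (SD, n = 3), was close to that at 2 months, 7.10 ± 0.22 (n = 4), and in WT it was 6.45 ± 0.37 (n = 3) and 6.76 ± 0.27 (n = 4). The difference of the Myc effects between neighbouring ages was 0.03, 0.09 and 0.17 and did not pass.

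In WT, age changed none of the 10 genes by the rule. The comparisons of 4 with 2, 6 with 4 and 8 with 6 months called 0.0484%, 0.00538% and 0% of all genes, and that of 8 with 2 months 1.27%. In limma's fit 1, 2, 1 and 1 members had an unadjusted p under 0.05 in them, beside 1902, 1608, 1818 and 3561 of all 18588 genes. The members were Rb1 at 4 against 2, Ccnd3 and Rb1 at 6 against 4, Ccnd3 at 8 against 6 and Ccnd1 at 8 against 2 months. Moderated variances also called 0 members. In rTg4510 the step from 6 to 8 months called 0.00538% of all genes and 0 members. Of the members, Rb1 alone (-0.15, FDR 0.224) had an unadjusted p under 0.05, as did 2685 of all 18588 genes.

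The other genes of the pathway were taken from 8 lists, whose counts stand beside the 1.98%, 13.8%, 19.8% and 15.9% of all genes called at 2, 4, 6 and 8 months. Of 16 measured G1 cyclins, kinases, inhibitors and pocket proteins besides the members, 0 were called at 2 and 6 months and 1 each at 4 and 8 months. These were Cks1b, a small subunit of cyclin-dependent kinases (1.199, FDR 0.00196 by limma), and Cdkn2d, the p19 inhibitor of CDK4 and CDK6 (1.03, FDR 0.00883). Cdk2, the kinase of late G1, had values from 0.04 to 0.22, and Rbl1 and Rbl2, the other pocket protein genes, from -0.25 to 0.17, none of which passed.

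Of the 10 E2F and DP factors, E2f1, an activator of S phase genes, was called higher at 4 months (1.32, SE 0.31, FDR 0.00345 by limma). Its effect at 4 months exceeded that at 2 months by 1.43 (FDR 0.0389). E2f3, another activating E2F, was called lower at 4, 6 and 8 months, at -0.60, -0.90 and -0.75. Thus 1 of the 10 factors was higher and 1 lower at 4 months, and E2f3 alone was called at 6 and 8 months.

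Other lists held genes that act after G1. Of 17 S phase genes, 6 were called higher at 4 months and 0 lower, led by the helicase subunit gene Mcm6 (1.28, FDR 1.79e-05 by limma). At 6 months Pcna (0.62) and Cdt1 (0.59) were higher and Ccna2 (-0.85) and Rrm2 (-0.93) lower, and at 8 months Gins2 (0.83) and Cdt1 (0.82) were higher and Rrm2 (-1.10) lower. These genes were named after their values were seen. Of 12 mitosis genes, 5 were called higher at 4 months, 8 were called lower at 6 months and 3 were lower at 8 months. The median log2 fold change of the mitosis genes was -0.19, 0.81, -0.72 and -0.61 from 2 to 8 months, beside 0.01, -0.04, -0.04 and -0.01 for all genes. Mki67, a marker of cycling cells, was higher by 0.83 at 4 months and lower by -1.13 at 6 months and by -0.62 at 8 months, and its effects at 4 and 6 months differed by -1.96 (SE 0.21, FDR 1.91e-04). Cdk1, the kinase of mitotic entry, was higher by 1.42 at 4 months, as was Birc5, which encodes survivin, by 1.10, and Birc5 was lower at 6 months by -0.73. The WT libraries had a summed log2 level of the 12 mitosis genes of 7.21 to 7.73 at 4 months and of 7.90 to 8.07 at 6 months, and the rTg4510 libraries 8.22 to 8.43 and 7.18 to 7.41. Ccnd1 was lower in rTg4510 both when the mitosis genes were higher and when they were lower, and Cdk4 was higher at both ages.

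**Figure D3:**
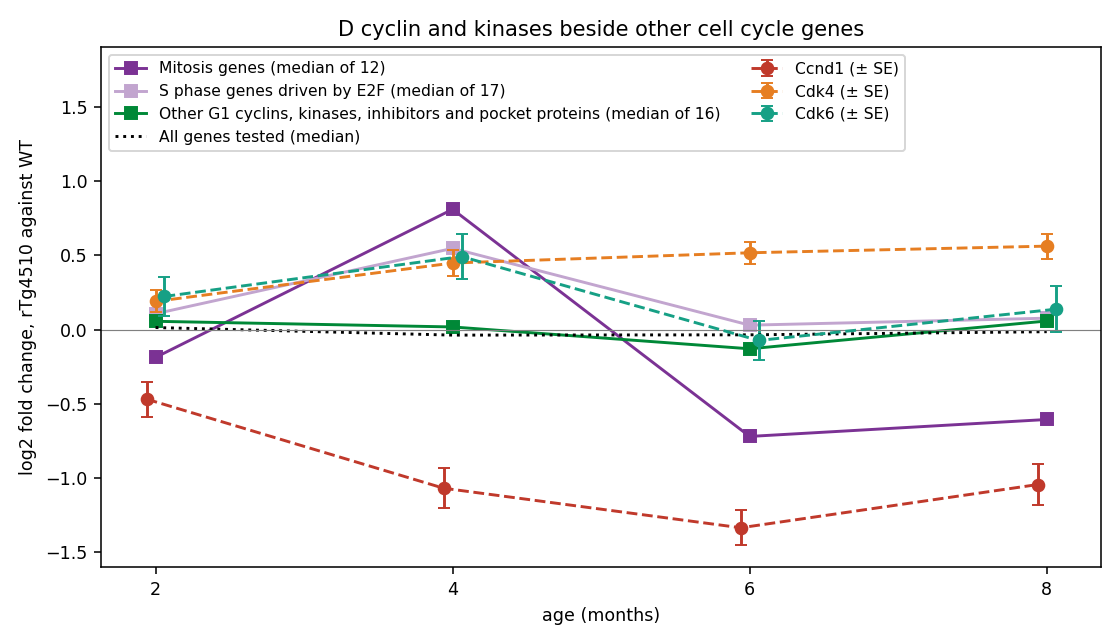
Log2 fold change of rTg4510 against WT (vertical axis) against age in months for Ccnd1, Cdk4 and Cdk6 (circles, bars are SE) and the medians of 3 lists of other cell cycle genes (squares) and of all genes (dotted). The mitosis genes rise to 0.81 at 4 months and drop to -0.72 at 6 months, while Ccnd1 stays below 0 and Cdk4 above 0 at each age.

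Of 10 measured genes of the MYC and MAX network, Mycl, a relative of Myc, was called lower at 4 months (-1.05, FDR 0.0473 by limma) and 6 months (-1.38, FDR 0.00221), and no other gene was called at any age. Of 12 genes listed as MYC targets, 0 were called at 2 months and 2, 3 and 2 were higher at 4, 6 and 8 months, with none lower. Npm1, a nucleolar protein gene, was higher by 1.04, 1.19 and 1.14 and Ldha, which encodes lactate dehydrogenase A, by 0.92, 0.90 and 0.84, and Eif4a1, a translation factor gene, was higher at 6 months by 0.71. The 12 genes had a median log2 fold change of 0.18, 0.23, 0.29 and 0.32 from 2 to 8 months, beside medians over all genes between -0.04 and 0.01.

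Of 14 measured p53 targets besides Cdkn1a, 0 were called at 2 months, 1 was higher and 1 lower at 4 months, 2 were higher and 1 lower at 6 months, and 3 were higher and 1 lower at 8 months. The shares at 4 and 6 months were close to the 13.8% and 19.8% of all genes. Gadd45a, a stress-induced growth arrest gene, was higher by 0.80, 1.39 and 1.46 at 4, 6 and 8 months, and Pmaip1, the NOXA gene of the BCL2 family, by 1.46 and 1.39 at 6 and 8 months, with Plk2, a polo-like kinase gene, higher at 8 months by 0.97. The lower gene at the 3 ages was Sesn1, a sestrin gene named after its values were seen, at -0.64, -0.62 and -0.63. Cdkn1a itself did not pass at these ages.

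Gene levels of other cell types moved with genotype in these preparations. At 6 months, 4 of the 6 neutrophil and monocyte markers, 2 of 6 endothelial, 2 of 6 astrocyte and 1 of 5 border macrophage markers were called lower in rTg4510, and 1 endothelial and 1 astrocyte marker higher. Of the 5 measured lymphocyte markers 1 was lower, of the 4 oligodendrocyte precursor markers 1 was higher and 1 lower, and of the 6 oligodendrocyte markers 0 were called at that age. Of the 2 measured neuronal markers Snap25 was lower (-1.42, FDR 0.0199 by limma), and the median of the pair was -1.18. The summed log2 level of the neutrophil and monocyte markers ran from 8.92 to 9.61 in WT and from 7.51 to 8.38 in rTg4510 at that age, and that of the endothelial markers from 6.996 to 7.71 and from 6.98 to 7.31. At 2 months, when Ccnd1 was lower in each rTg4510 library, 0 markers of any list were called, in a comparison that called 1.98% of all genes. Ccnd1 was not called at that age either and passed the FDR alone. So did 3 of the 8 microglia markers, all lower in rTg4510 (limma). These were Itgam (-0.24, FDR 0.00798), Cx3cr1 (-0.35, FDR 0.0367) and Tmem119 (-0.35, FDR 0.0465). The neutrophil and monocyte markers then ran from 8.83 to 9.39 in WT and from 8.56 to 9.91 in rTg4510. The 5 border macrophage markers each had a negative log2 fold change at that age (median -0.27), and their mean log2 signal ran from 7.76 to 7.98 in WT and from 7.44 to 7.80 in rTg4510. At 8 months, when Myc was called, 3 astrocyte markers, 3 neutrophil and monocyte markers and 1 endothelial marker were lower, and 1 astrocyte, 1 endothelial and 1 oligodendrocyte precursor marker were higher. Of the 8 microglia markers, 1 was called higher and 2 lower at 6 months, and 1 was lower at 8 months. At 4 months, when Ccnd1 was called, the microglia marker Trem2 was higher (0.61) and Tmem119 lower (-0.74). The oligodendrocyte precursor marker Cspg4 was higher by 2.98 at that age (FDR 3.87e-09 by limma), but the 4 precursor markers together were not. Their mean log2 signal was 4.02 in both genotypes at 4 months. Their summed log2 level overlapped, from 6.05 to 7.15 in WT and from 6.02 to 6.955 in rTg4510. No astrocyte, oligodendrocyte or measured neuronal marker was called at 4 months. The summed log2 level of the neutrophil and monocyte markers then ran from 8.80 to 9.58 in WT and from 8.01 to 8.64 in rTg4510. That of the border macrophage markers ran from 10.25 to 11.03 in WT and from 9.90 to 10.16 in rTg4510. Neither list overlapped between genotypes at 4 months, whereas the endothelial and lymphocyte markers did. The part of these markers in the values of the G1 genes was not tested.

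Within groups, 3 members varied from library to library with the immediate early genes, which cells switch on within minutes of a stimulus, tissue dissociation included. This relation was chosen after the values had been seen. For each of the 28 libraries the deviation of a member from its group mean was set against the deviation of the mean of 13 immediate early genes (Fos, Jun, Egr1 and others), and 10 such relations were computed. Cdkn1a had Pearson r = 0.874 (p = 1.00e-05, the smallest that 100000 permutations within groups can give) and Spearman rho = 0.871 (permutation p = 1.00e-05). For Myc r was 0.727 (permutation p = 2.00e-04) and rho 0.746 (permutation p = 1.70e-04), and for Cdkn1b r was 0.644 (permutation p = 9.30e-04) and rho 0.687 (permutation p = 0.00113). Among the 18575 other genes of the table, 0.517% had an r at least as high as that of Cdkn1a, 1.98% as that of Myc and 2.95% as that of Cdkn1b.

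Without the 2 libraries farthest from the median of the immediate early genes, r was 0.878 for Cdkn1a, 0.711 for Myc and 0.674 for Cdkn1b. Within the 14 WT libraries r was 0.908, 0.755 and 0.773, and within the 14 rTg4510 libraries 0.812, 0.658 and 0.519. The deviations had the same sign in 25 of the 28 libraries for Cdkn1a, in 23 for Myc and in 20 for Cdkn1b. Ccnd2 had r = 0.412 (permutation p = 0.0426). The other 6 members, Ccnd1 (r = 0.094), Ccnd3 (-0.147), Cdk4 (0.042), Cdk6 (0.033), Cdkn2c (0.100) and Rb1 (-0.193), had permutation p-values of 0.375 or more. At 8 months, where Myc was called higher, the mean log2 signal of the immediate early genes ran from 10.75 to 11.62 in WT and from 11.58 to 11.96 in rTg4510, with group means of 11.22 and 11.74. The median log2 fold change of the 13 genes was 0.45, where that of Myc was 0.63, and 1 of the 13 genes was called, Nr4a1 (2.24, FDR 8.81e-07 by limma). At 2 and 4 months Nr4a1 was likewise the 1 gene called, and at 6 months Nr4a1, Atf3 and Zfp36 were higher. WT replicate 3 of 8 months, without which Myc was not called, was the lowest of its group in both, at -0.48 from the group mean for the immediate early genes and -0.42 for Myc. The part of these genes in the genotype difference of Myc was not tested.

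**Figure D4:**
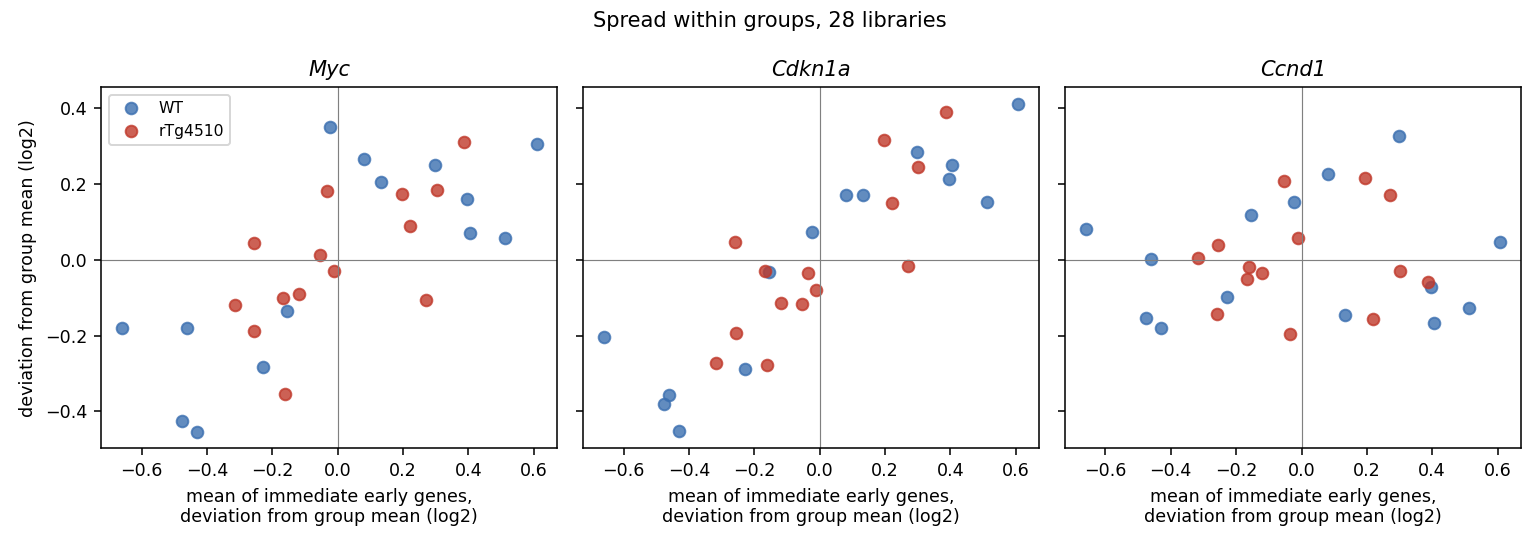
Deviation of Myc, Cdkn1a and Ccnd1 from the group mean (vertical axes, log2) against that of the mean of 13 immediate early genes (horizontal axes, log2) in the 28 kept libraries (blue WT, red rTg4510). Points rise from lower left to upper right for Myc and Cdkn1a and show no slope for Ccnd1.

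By the likeness of the 8 group means, each centred on its mean, the genes closest to Ccnd1 were Rapgef5, a guanine nucleotide exchange factor gene, and Avpr2, a vasopressin receptor gene. Their root mean square difference from Ccnd1 was 0.079 log2 units each, where the SD of Ccnd1 over the 8 means was 0.56. Closest to Myc were Ranbp1, a RAN binding protein gene, at 0.077, and Pus7l at 0.079, where the SD of Myc was 0.28.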

How the data were processed

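Forebrain microglia RNA of rTg4510 and WT mice at 4 ages was sequenced as 32 libraries, and genotype, age and replicate number were read from the labels. The deposited values are log2 gene signals: the authors added up reads per exon over sequencing runs, dropped exons in which over 80% of samples had under 10 counts, fitted a robust linear model to obtain 1 signal per gene, and set all libraries to a common median. The submitters' processing notes name the build GRCm 38, and the aligner and annotation are not given in the sources used here. Entrez numbers were matched to RefSeq symbols of GRCm38.p6, and 95.9% of 18588 were found.

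Computed here, with limma 3.58.1 in R 4.3.3, was a linear model per gene with 8 group means and unmoderated variances (20 residual degrees of freedom), with contrasts of genotypes at each age, of neighbouring genotype effects and of ages within a genotype. FDR values were Benjamini-Hochberg adjusted over all genes, and called genes needed FDR under 0.05 and more than 1.5 fold. No gene was filtered out. The model was tested on simulated data. Correlations used 100000 permutations within groups (numpy 2.4.6, scipy 1.17.1).

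The members and lists were chosen with earlier results of these data known. Named genes were the 10 members, up to 3 called genes of a list by size of change, a few fixed G1 and cycling genes, and for each member called at an age the 2 genes of closest profile. Alternatives were a fit of only the groups compared, all 32 libraries, moderated variance, quantile normalization, a low-signal filter, a replicate block, the FDR alone, and leaving out each library. Labels give both genotypes the same replicate numbers. Deviations of same-numbered libraries correlated over genes with r of 0.131 to 0.153 at 6 months and 0.150 to 0.291 at 8 months. At these 2 ages the numbers were taken to pair the libraries, though the main fit did not use the pairing. No r of differently numbered libraries was computed to set beside these. The r was 0.065 to 0.167 at 2 months and -0.100 to 0.124 at 4 months, where the numbers were not taken to pair them. The values at 2 and 6 months overlapped, so r does not separate these ages. What a replicate number marks is not given in the sources used here.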

Additional observations from a re-analysis of the deposited data

Results flagged for a closer look

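The genotype effect on Ccnd1 differed between 2 and 4 months by -0.60 (log2, limma's interaction contrast, FDR 0.0460), the only member with such a difference past both thresholds in the main fit. This call was lost with all 32 libraries (-0.26, FDR 0.778), with a replicate block (FDR 0.129) and on leaving out any of many single libraries. Cdkn1b had a difference of the same size (-0.60) with an FDR of 0.0605.

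Of 40 groups of 4 libraries tested for a library far from the others (by Dixon's ratio, for which chance flags about 1 in 20 groups), 5 held one. Ccnd3 was 5.31 in WT replicate 3 of 2 months, where the other libraries had 5.38 to 5.40, and 4.90 in WT replicate 4 of 6 months, where they had 5.08 to 5.10. Cdk4 was 7.54 in rTg4510 replicate 3 of 2 months, against 7.29 to 7.33 in the others. It was 7.34 in WT replicate 3 of 6 months, against 7.08 to 7.09. Cdkn1b was 7.33 in rTg4510 replicate 2 of 2 months, against 7.44 to 7.45.

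Both rTg4510 libraries that the authors left out had members above all kept libraries of their age. Replicate 3 of 4 months had a Ccnd1 signal of 9.15, where the highest kept library, a WT library, had 8.89, and a Ccnd2 signal of 5.79 against 5.42. Replicate 4 of 8 months had Ccnd3 at 6.15 against 5.41, Cdk6 at 6.52 against 6.39, Cdkn1b at 7.45 against 7.34 and Myc at 7.79 against 7.17. The WT libraries left out did so too. Replicate 3 of 4 months had Ccnd2 at 5.68 against 5.42, Ccnd3 at 5.61 against 5.59 and Cdkn1b at 7.38 against 7.34, and replicate 4 of 8 months had Ccnd1 at 8.52 against 8.42 and Cdkn1b at 7.44 against 7.34. In all 4 libraries left out Cdkn2c was at 4.28 to 4.52, below the 4.96 of the lowest of the 28 kept libraries. The cause was not tested.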

How the results depend on the processing

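No called value of the 10 genes changed sign under any alternative, and the calls of Ccnd1 at 6 and 8 months were kept in all of them. With only the groups compared in the fit, 0 members were called at 4 months (8.4% of all genes) and 1 at 8 months (9.97%). This setting called 0 for the difference of 2 and 4 months (3.29%) and 0 in rTg4510 for 6 against 4 months (0.00538%). Quantile normalization called 1 member at 8 months (17.2% of all genes). For the difference of 2 and 4 months, moderated variances called 2 members (4.98% of all genes). All 32 libraries called 1, Cdkn1b in place of Ccnd1 (3.35% of all genes). With all 32 libraries 0 were called in rTg4510 for 8 against 2 months (7.88% of all genes). A fit with a replicate block called 0 members for the difference of 2 and 4 months (Ccnd1 -0.60, FDR 0.129), beside 4.29% of all genes. At those ages the numbers were not taken to pair the libraries. The block changed no other call. With the block, Ccnd1 at 2 months (FDR 0.0864) and Cdk6 at 4 months (FDR 0.0582) no longer passed the FDR alone, and Myc at 6 months did. By the FDR alone 1, 3, 2 and 3 members were called at 2, 4, 6 and 8 months. These were Ccnd1, with Cdk4 and Cdk6 at 4 months, Cdk4 at 6 months and Cdk4 and Myc at 8 months. In rTg4510, 3 passed for 4 against 2 months and 2 for 8 against 2 months. The share of all genes passing the FDR alone was not computed, so these counts have no rate beside them.

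Leaving out 1 library gave 1 to 2 called members at 4 and at 8 months, 0 to 2 for the difference of 2 and 4 months, 0 to 2 in rTg4510 for 4 against 2 months and 0 to 1 for 6 against 4 months, and the same count as with all 28 elsewhere. With all 28 libraries these 5 comparisons called 13.8%, 15.9%, 4.66%, 6.39% and 0.818% of all genes. The shares in the fits without 1 library are not given here. The low-signal filter changed no call. With 3 or 4 libraries in a group, the number of libraries limits what can be seen. For each member except Rb1, a change of 1.5 fold lay within the 95% interval at some age where that member was not called. Besides Cdkn1a and Cdkn2c, examples were Ccnd2 at 6 months (-0.66 to 0.08), Ccnd3 at 4 months (-0.67 to -0.07) and Cdkn1b at 4 months (-0.64 to -0.04).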
